A study of Homo sapiens with 12 samples.

Results

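Expression after knockdown of DHX9 was compared with expression after transfection of a scrambled control in the human Ewing sarcoma line TC-71. The comparison takes 6 of the 12 libraries of the series, 3 labelled siDHX9 and 3 labelled scrambled, chosen by their labels alone. The siDHX9 cells received RNA directed against DHX9, and the scrambled cells received a control RNA in the same way. Both were reverse-transfected in repeated pulses with Lipofectamine RNAiMAX and collected at 48 hours. The protocol text speaks of siRNAs and the design text of shRNAs, and the sources used here give neither their sequences nor their number. The DMSO group is shown for orientation only: these 3 libraries come from TC-71 cells with the genotype label WT that were given the solvent for 16 hours and no transfection, so that transfection, time and solvent cannot be told apart where DMSO differs from the other groups. All cells are of 1 line, described as separate biological replicates, and p values rest on the spread between those cultures. In the main fit the variance of each gene was drawn in part from the other genes tested.

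DHX9 (also called RNA helicase A) is a DExH-box helicase that unwinds RNA duplexes, RNA-DNA hybrids and structured nucleic acids, and it links transcription factors to RNA polymerase II. In Ewing sarcoma it is known as a binding partner of the fusion transcription factor EWS-FLI1. Groups of genes described below belong to neuronal vesicles and channels, many of which are known targets of the repressor REST, and to the amino acid response driven by the transcription factor ATF4. REST binds an element named RE1 and recruits histone deacetylases and demethylases that keep neuronal genes low outside neurons. ATF4 is translated when kinases phosphorylate eIF2 under amino acid shortage or endoplasmic reticulum stress, and it raises genes for amino acid uptake, amino acid synthesis and tRNA charging.

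Stretches of promoters around motifs of those factors are shown for genes whose levels are given below, because many members of the groups described are known targets of those factors. Each stretch is from RefSeq's GRCh38.p14 annotation, is written 5′ to 3′ on the strand of the gene and ends at most 30 bases past the annotated start. Capitals mark the motif, which is an arm of the RE1 element in UNC13A, VGF and KCNK3, the amino acid response element in SLC7A1, SLC38A1 and GOT1, and the serum response element in EGR1. In the RE1 examples the arms lie on the strand opposite to the gene.
UNC13A, chr19:17688325-17688385, minus strand: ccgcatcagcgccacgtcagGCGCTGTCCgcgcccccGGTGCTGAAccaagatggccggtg
VGF, chr7:101165550-101165598, minus strand: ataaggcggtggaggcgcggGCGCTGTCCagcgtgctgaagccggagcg
KCNK3, chr2:26692671-26692719, plus strand: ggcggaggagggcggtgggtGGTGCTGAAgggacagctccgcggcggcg
SLC7A1, chr13:29595659-29595701, minus strand: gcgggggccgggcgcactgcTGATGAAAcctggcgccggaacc
SLC38A1, chr12:46266493-46266540, minus strand: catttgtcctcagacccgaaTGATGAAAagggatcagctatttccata
GOT1, chr10:99430795-99430842, minus strand: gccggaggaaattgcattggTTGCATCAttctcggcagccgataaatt
EGR1, chr5:138465354-138465402, plus strand: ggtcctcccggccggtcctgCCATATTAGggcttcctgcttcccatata

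The motifs were searched on both strands of 35116 RefSeq windows that run from 250 bases before to 50 bases after each annotated start. The left arm of RE1, TTCAGCACC, was present in 132 windows (0.376%), and the first 9 letters of the right arm, GGACAGCGC, in 204 windows (0.581%); neither overlaps another motif searched. Of 216 genes called higher that have a window, 5 (2.31%) held the left arm (CKMT1A, CKMT1B, KCNK3, PSD and UNC13A) and 8 (3.7%) held the right arm (BSN, CDC42EP2, IGFBP4, LAMA4, PSD, SLC7A10, UNC13A and VGF). Of 169 genes called lower that have a window, 2 (1.18%) held the left arm, DUT and FAR2, and 1 (0.592%) the right arm, SLC25A13. Of 10720 tested genes that were not called and have a window, 35 (0.326%) held the left arm and 112 (1.04%) the right arm. The amino acid response element, TGATGNAA, was present in 1270 windows (3.62%), in 7 of the 216 (3.24%), in 7 of the 169 (4.14%), among them SLC7A1, SLC38A1, GOT1 and CDC25C, and in 278 of the 10720 (2.59%). The serum response element, of which the letters CCATATTAG were searched, was present in 34 windows (0.0968%) and in EGR1 alone among called genes, against 11 of the 10720. These are matches of letters in short windows, described without a test.

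Levels are read counts per gene that the authors divided by DESeq size factors, called normalised counts below, and they are not divided by gene length, so levels of different genes are not compared. Total reads recovered from the table were, in units of 1e6, 46.9 to 49.4 per siDHX9 library and 47.8 to 51.0 per scrambled library. All 12 Ewing sarcoma markers listed (CD99, NKX2-2, NR0B1, PRKCB and others) were measured above the minimum, with a summed level of 79679 to 92409 in siDHX9 and 79753 to 82082 in scrambled libraries. The endothelial and blood markers CD3E, HBB, PECAM1, VWF and KDR, the epithelial keratins KRT5, KRT19 and KRT20, and DBH and SOX10 of the neural crest were at 0 in all 6 libraries. The blood and endothelium list as a whole summed to 89.65 to 152.1 in siDHX9 and 42.9 to 61.03 in scrambled libraries, without overlap; in siDHX9 most of this came from the near-identical haemoglobin genes HBA1 and HBA2, and none of its 3 tested members was called. Epithelial and melanocyte markers summed to 139 to 156 in siDHX9 and 154 to 202 in scrambled libraries, and neuroblastoma and neural crest markers to 1017 to 1115 in siDHX9 and 912 to 1059 in scrambled libraries, with none called. Fibroblast and muscle markers summed to 3870 to 4449 in siDHX9 and 2971 to 3739 in scrambled libraries, with DES and MYOG at 0. Of 8 tested members 2 were called higher, THY1 and DCN (25%, against 2.1% of all genes tested). Both calls ended without siDHX9 replicate 1 or without any 1 scrambled library (adjusted p = 0.0781 to 0.180), and that of THY1 without siDHX9 replicate 3 (0.138). Reads on ribosomal RNA entries were 1.76 to 3.59% in siDHX9 and 3.52 to 5.20% in scrambled libraries. On the first principal component of the 6 libraries, which held 47.2% of the variance, the groups separated; siDHX9 replicate 2 lay nearest to the scrambled libraries, and on the second (17.2%) it lay farthest from siDHX9 replicate 3.

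The entry that holds DHX9 was lower in every siDHX9 library than in every scrambled library. The table joins DHX9 with its neighbour NPL, the gene of a sialic acid aldolase, in 1 entry (chromosome 1, 182758584 to 182857117, hg19), which also overlaps LOC647070. This entry held 19342, 21178 and 21304 normalised counts in siDHX9 replicates 1 to 3, against 30287, 33422 and 34357 in scrambled replicates 1 to 3 and 36422, 34511 and 33239 in DMSO. The siDHX9 mean was 37.0% below the scrambled mean (log2 fold change -0.66, SE 0.10, limma adjusted p = 0.00734). An exact two-sided permutation test gave p = 0.1, the smallest p that 3 against 3 libraries allow. Without siDHX9 replicate 1, the library with the lowest value, the log2 difference was -0.62 and limma's adjusted p was 0.0654, while leaving out any other single library kept the call. Reads of the 2 genes in this entry cannot be told apart, so the level of DHX9 mRNA alone is not given.

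Of 14158 named genes tested, 298 (2.1%) were called higher and 205 (1.45%) lower in siDHX9 at a limma adjusted p under 0.05. Groups did not overlap for any of these 503 (3.55%). Among all genes tested, 14.9% had all siDHX9 libraries above all scrambled libraries and 14.5% had them all below. The median fold change was 2.04 among genes called higher and 1.67 among genes called lower, and 155 of the higher and 41 of the lower genes differed by at least 2-fold. The DMSO mean lay between the siDHX9 and scrambled means for 217 of the 298 higher genes and 146 of the 205 lower genes. In bulk RNA, fewer cells of a kind and less RNA per cell cannot be told apart.

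**Figure D1:**
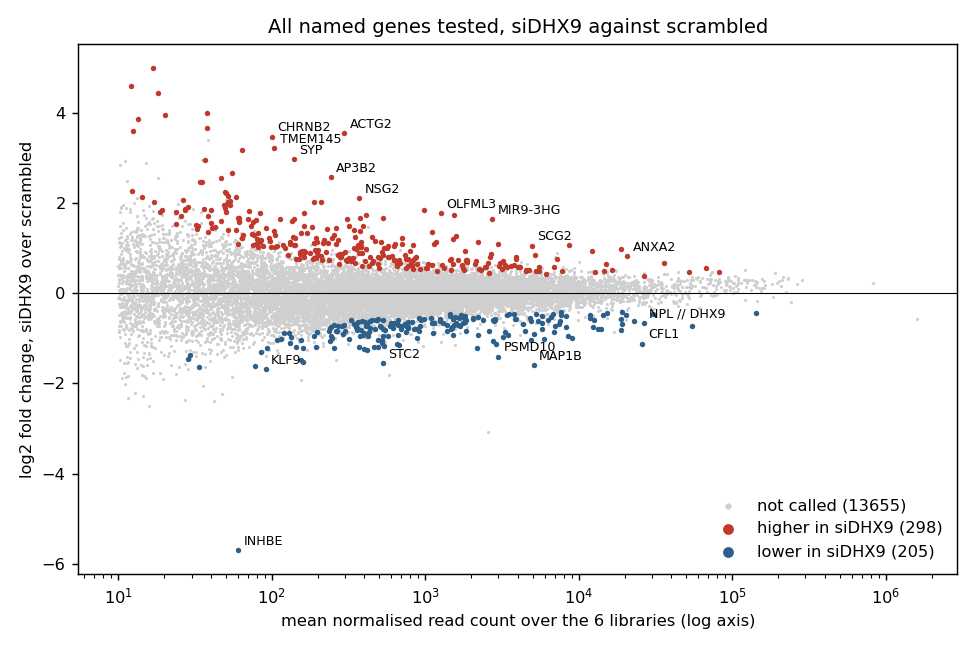
Log2 fold change of siDHX9 over scrambled (vertical) against the mean normalised read count over the 6 libraries (horizontal, log axis), 1 point per named gene tested. Of the genes called lower INHBE alone lies more than 2 log2 units below 0, while the 155 genes higher by at least 2-fold spread further up.

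The number of calls depended on single libraries. Without siDHX9 replicate 1 it was 50 higher and 21 lower, without siDHX9 replicate 3 it was 92 and 54, without scrambled replicate 1 it was 77 and 22, and without scrambled replicate 2 it was 151 and 69. Without siDHX9 replicate 2 the count was 1308 higher and 1054 lower. Called with all 6 libraries and again with each library left out were 46 genes higher (0.325% of genes tested) and 14 lower (0.0989%). The 14 lower genes are MAP1B, PSMD10, PBK, CFL1, PPP1R9A, RAP1A, CPSF3, YWHAH, PRPH, POLR2D, ZNF22, MAT2B, SEC22B and H2AFZ, and those of the 60 that lie outside the rule for naming genes were named after their values were seen. With scrambled replicates 1 and 2 both left out, 10 genes were called, all higher: MIR9-3HG, OLFML3, BSN, NSG2, AP3B2, SYP, TMEM145, CHGB, ACTG2 and LOC105371795.

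**Figure D2:**
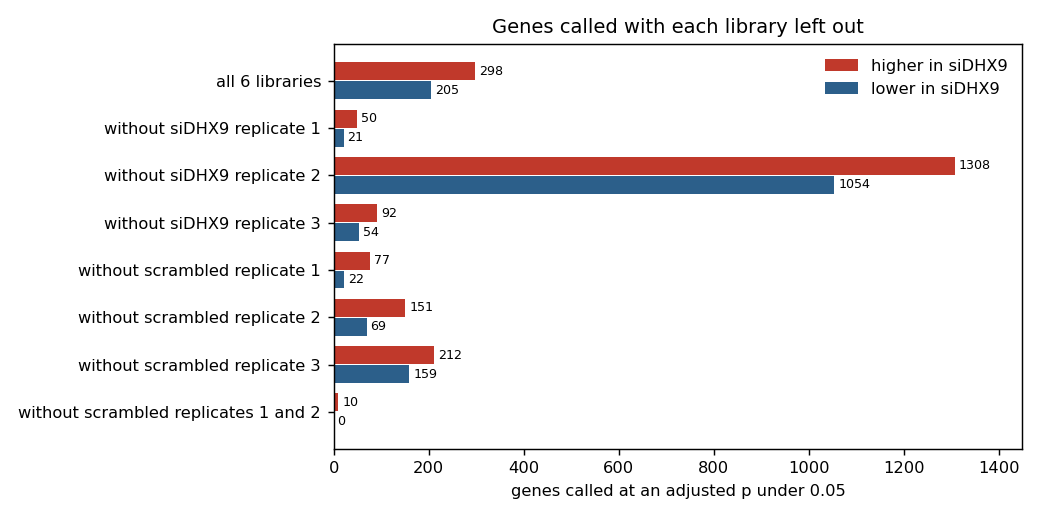
Number of genes called at a limma adjusted p under 0.05 with all 6 libraries, with each library left out, and without scrambled replicates 1 and 2, as bars from 0 for genes higher and genes lower in siDHX9. The counts run from 0 lower and 10 higher without scrambled replicates 1 and 2 to 1308 higher without siDHX9 replicate 2.

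Some genes of synaptic vesicles and the presynaptic active zone were higher in siDHX9 than in scrambled libraries. Of 37 tested members, 8 were called, all higher (21.6%, against 2.1% of all genes tested), 14 had a negative log2 fold change, and the median log2 fold change of the 37 was 0.13, against -0.003 over all genes tested. Relative to the DMSO mean, the list median on the log2 scale was 0.23, 0.16 and 0.24 in siDHX9 replicates 1 to 3. In scrambled replicates 1 to 3 it was -0.15, -0.06 and -0.28, so the 2 groups lay on opposite sides of DMSO. SYP encodes synaptophysin, the main membrane protein of small synaptic vesicles (chromosome X, 49044265 to 49056661). It held 256, 209 and 282 normalised counts in siDHX9 replicates 1 to 3, against 31.6, 30.5 and 29.9 in scrambled replicates 1 to 3, an increase of 7.84-fold (log2 fold change 2.97, SE 0.20, adjusted p = 9.86e-05). The lowest siDHX9 library was thus several times the highest scrambled one, and DMSO lay between them at 95.02 ± 28.7. AP3B2, the neuronal beta subunit of the AP-3 adaptor that sorts vesicle cargo, held 469.7, 397 and 382 in siDHX9 against 65.8, 64.7 and 77.8 in scrambled libraries (log2 fold change 2.56, SE 0.17, adjusted p = 9.86e-05). BSN, the active zone scaffold bassoon, held 353, 311 and 352 in siDHX9 against 71.2, 99.0 and 78.8 in scrambled libraries (log2 fold change 2.03, SE 0.18, adjusted p = 0.000604). Neither gene's groups came near each other, and both had DMSO means between them, 209 ± 5.07 for AP3B2 and 183 ± 17.0 for BSN. NSG2, a neuronal protein of endosomal vesicle traffic, averaged 599.8 ± 37.9 in siDHX9 and 139 ± 8.27 in scrambled libraries (± SD, each of n = 3; log2 fold change 2.10, SE 0.14, adjusted p = 9.86e-05). RAB3C, a small GTPase of synaptic vesicles, averaged 96.5 ± 15.1 in siDHX9 and 14.3 ± 2.34 in scrambled libraries (± SD, each of n = 3; log2 fold change 2.67, SE 0.28, adjusted p = 0.00157). UNC13A, which primes vesicles for fusion and whose promoter holds both RE1 arms in the sequence above, held 39.3, 80.5 and 56.2 in siDHX9 against 14.4, 9.25 and 5.99 in scrambled libraries (log2 fold change 2.47, SE 0.41, adjusted p = 0.0142). Its DMSO mean of 39.8 ± 9.23 was nearer to the siDHX9 than to the scrambled mean. The other called members, SYT2 and SYT4, are synaptotagmins; SYT2, the calcium sensor of fast release, averaged 471 ± 47.4 in siDHX9 and 167 ± 18.9 in scrambled libraries (± SD, each of n = 3; log2 fold change 1.49, SE 0.16, adjusted p = 0.0016). Without siDHX9 replicate 3 the calls of UNC13A and SYT4 ended (adjusted p = 0.0692 and 0.0851), and that of SYT4 also ended without siDHX9 replicate 1 (0.0960) and without scrambled replicate 1 (0.101).

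**Figure D3:**
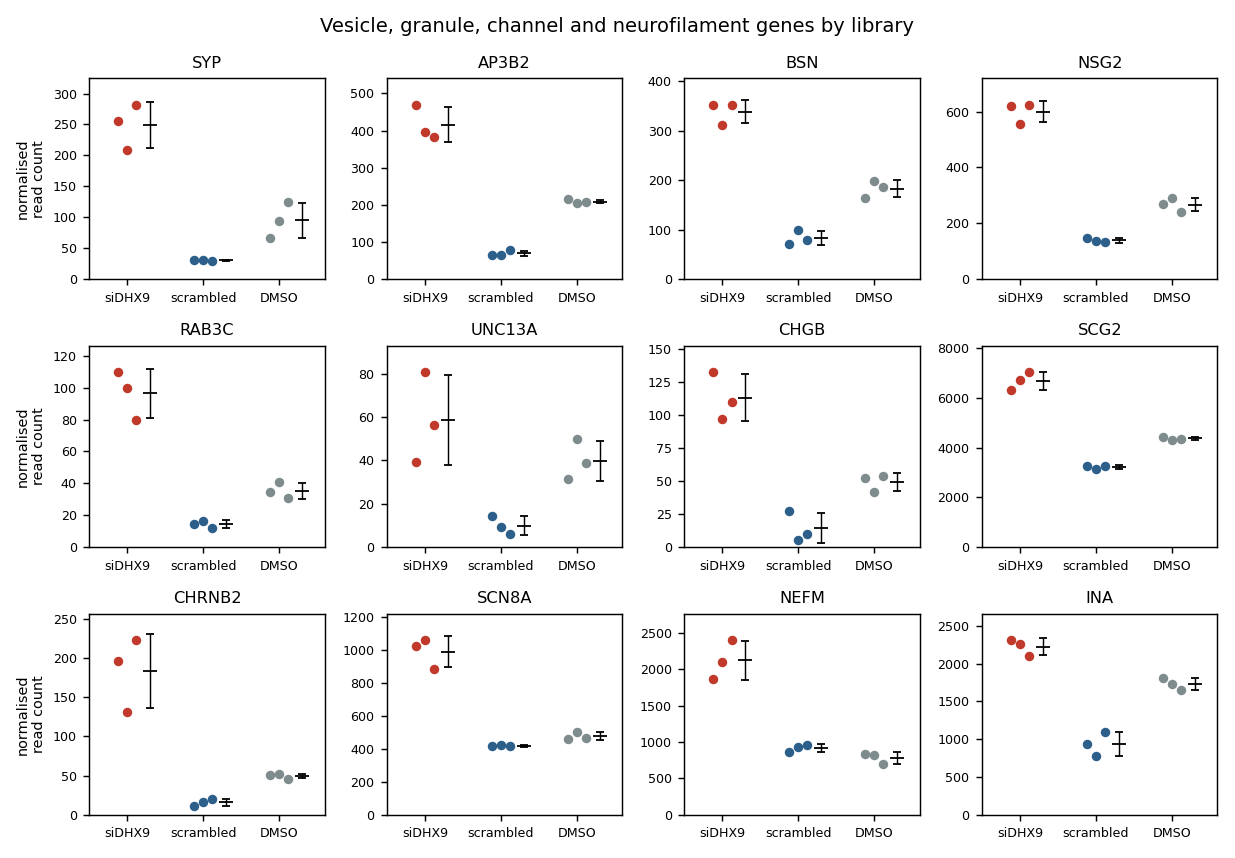
Normalised read counts of 12 genes in siDHX9, scrambled and DMSO libraries (1 point per library, bars show the mean and SD of 3). In each panel the siDHX9 points lie above all scrambled points, and in SYP, AP3B2, BSN and NSG2 the DMSO points lie between them.

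Of 10 tested genes of dense-core secretory granules 6 were called higher and 1, CPE, lower. These shares were 60% and 10%, against 2.1% and 1.45% of all genes tested, and the median log2 fold change was 0.71. Relative to the DMSO mean, the list median on the log2 scale was 0.59, 0.43 and 0.68 in siDHX9 replicates 1 to 3. It was -0.44, -0.45 and -0.37 in scrambled replicates 1 to 3, so both groups lay away from DMSO. SCG2, the granin secretogranin II, held 6326, 6714 and 7034 normalised counts in siDHX9 against 3248, 3139 and 3263 in scrambled libraries (log2 fold change 1.06, SE 0.10, adjusted p = 0.000755). CHGB, chromogranin B, held 132, 97.0 and 110.2 in siDHX9 against 27.1, 5.55 and 9.98 in scrambled libraries (log2 fold change 3.16, SE 0.47, adjusted p = 0.0089). The 3 libraries of each group agree closely for SCG2, whereas CHGB ranged from 5.55 to 27.1 among scrambled libraries, still below every siDHX9 library. CHGA, chromogranin A, was near the detection limit in scrambled libraries, with 22 reads in 3 libraries and 0 in replicate 2, against 200 reads in the 3 siDHX9 libraries. The ratio of normalised sums was 9.72 (95% exact interval 6.25 to 15.9, counting error only; adjusted p = 0.047). VGF, a neuropeptide precursor with the RE1 right arm shown above, averaged 78.6 ± 15.6 in siDHX9 and 19.6 ± 5.49 in scrambled libraries (± SD, each of n = 3; log2 fold change 1.96, SE 0.30, adjusted p = 0.00977). The prohormone convertases PCSK1 and PCSK2, which cut such precursors, were 1.69-fold and 1.54-fold higher (adjusted p = 0.044 and 0.0307). CPE, carboxypeptidase E, which trims the cut peptides, went the other way, with 1279 ± 122 in siDHX9 and 1842 ± 155 in scrambled libraries (± SD, each of n = 3; log2 fold change -0.53, SE 0.12, adjusted p = 0.0483). PENK, the precursor of the enkephalin peptides and not a member of that list, averaged 253 ± 42.4 in siDHX9 and 72.9 ± 6.10 in scrambled libraries (± SD, each of n = 3; log2 fold change 1.77, SE 0.19, adjusted p = 0.00188). DMSO averaged 203 ± 10.4 for PENK and 4368 ± 16.8 for PCSK2, nearer to the siDHX9 than to the scrambled mean. For SCG2 and VGF it averaged 4373 ± 56.5 and 30.6 ± 8.19, nearer to the scrambled mean. SCG2 and PENK kept the call with any 1 library left out. Without siDHX9 replicate 1 it ended for CHGB, CHGA, VGF, PCSK1, PCSK2 and CPE (adjusted p = 0.0627 to 0.203), without siDHX9 replicate 3 or scrambled replicate 1 for the same genes other than CHGB (0.0511 to 0.197), without scrambled replicate 2 for PCSK1 and CPE (0.115 and 0.130), and without scrambled replicate 3 for CHGA, PCSK1, PCSK2 and CPE (0.0603 to 0.0773).

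Of 36 tested neurotransmitter receptors and ion channels 5 were called, all higher (13.9%, against 2.1% of all genes tested). The median log2 fold change was 0.54, with 26 of 36 positive against 49.5% of all genes tested. Relative to the DMSO mean, the list median on the log2 scale was 0.13, 0.07 and 0.08 in siDHX9 replicates 1 to 3. It was -0.32, -0.18 and -0.41 in scrambled replicates 1 to 3, so the scrambled libraries were the ones farther from DMSO. CHRNB2, the beta-2 subunit of neuronal nicotinic acetylcholine receptors (chromosome 1, 154540257 to 154552351), held 197, 132 and 223 normalised counts in siDHX9 against 10.8, 16.6 and 19.9 in scrambled libraries, an increase of 11.03-fold (log2 fold change 3.46, SE 0.31, adjusted p = 0.000584). Its siDHX9 libraries stood far above both the scrambled libraries and the DMSO mean of 49.5 ± 2.90. SCN8A, the voltage-gated sodium channel Nav1.6, held 1021, 1057 and 879.8 in siDHX9 against 414, 424 and 416 in scrambled libraries (log2 fold change 1.23, SE 0.13, adjusted p = 0.00148). KCNK3, a background potassium channel with the RE1 left arm shown above, held 78.6, 73.2 and 97.3 in siDHX9 against 12.6, 24.0 and 16.0 in scrambled libraries (log2 fold change 2.22, SE 0.31, adjusted p = 0.00702). For KCNK3 the scrambled libraries were the low group, since DMSO averaged 105 ± 10.8, above the siDHX9 mean. CACNA1G, a T-type calcium channel, was 2.20-fold higher (adjusted p = 0.0164). It lost the call without siDHX9 replicate 1, siDHX9 replicate 3 or scrambled replicate 1 (0.106, 0.0698 and 0.0762). With siDHX9 replicate 2 left out the list had 9 members higher and 1 lower.

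The neuronal cytoskeleton moved in both directions, with 4 of 22 tested members called higher and 2 lower (median log2 fold change 0.24). These shares were 18.2% and 9.09%, against 2.1% and 1.45% of all genes tested. NEFM, the medium neurofilament chain, held 1857, 2102 and 2396 normalised counts in siDHX9 against 857, 928 and 957 in scrambled libraries (log2 fold change 1.21, SE 0.13, adjusted p = 0.0016). INA, alpha-internexin, which assembles with neurofilaments, held 2310.2, 2265 and 2102 in siDHX9 against 937, 773 and 1091 in scrambled libraries (log2 fold change 1.27, SE 0.14, adjusted p = 0.00212). NEFH, the heavy chain, and TUBB3, the neuronal beta-tubulin, were 1.59-fold and 1.98-fold higher (adjusted p = 0.018 and 0.0274). MAP1B, a microtubule-associated protein of growing axons (chromosome 5, 71403118 to 71505396), held 2839, 2556 and 2192 in siDHX9 against 8061, 7146 and 7709 in scrambled libraries, the lowest scrambled library being well above the highest siDHX9 one (log2 fold change -1.60, SE 0.12, adjusted p = 0.000177). PRPH, peripherin, an intermediate filament protein of peripheral neurons, held 2383, 2099 and 2709.5 in siDHX9 against 4533, 4862 and 4292 in scrambled libraries (log2 fold change -0.93, SE 0.12, adjusted p = 0.00491). Among intermediate filament genes NEFM, INA and NEFH thus rose while PRPH fell. Calls of NEFM, INA, MAP1B and PRPH held with any 1 library left out, while NEFH and TUBB3 lost theirs without siDHX9 replicate 1, scrambled replicate 1 or scrambled replicate 2 (adjusted p = 0.0608 to 0.138), and TUBB3 also without siDHX9 replicate 3 (0.0825) or scrambled replicate 3 (0.0646).

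REST itself did not pass the test. It held 917, 894 and 657 normalised counts in siDHX9 against 1477, 1053 and 1729.8 in scrambled libraries and averaged 1457 ± 80.7 in DMSO (log2 fold change -0.77, SE 0.20, adjusted p = 0.0622). Every siDHX9 library lay below every scrambled library, but scrambled replicate 2 was near the highest siDHX9 value. None of the 21 tested members of the list of REST and its corepressors was called by limma, against 6 lower at an unadjusted p under 0.05; edgeR called none and DESeq2 called 3, all lower. Over all genes tested edgeR called 2.25% higher and 1.42% lower, and DESeq2 called 4.87% higher and 5.33% lower. Whether the lower REST values have a part in the rise of the genes above was not tested.

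**Figure D4:**
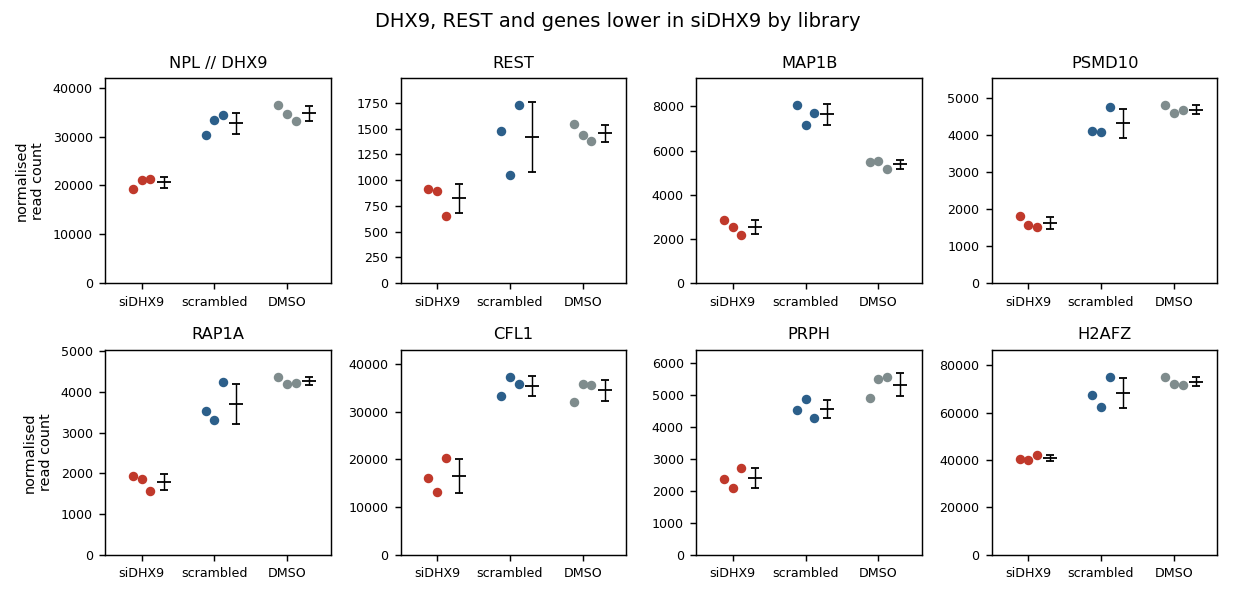
Normalised read counts of the entry with DHX9, of REST and of 6 genes called lower, in siDHX9, scrambled and DMSO libraries (1 point per library, bars show the mean and SD of 3). In every panel the siDHX9 points lie below all scrambled points.

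Outside those lists, ACTG2 had the largest fold rise of the genes whose mean reached 100 in siDHX9. ACTG2 encodes the gamma-2 actin of enteric smooth muscle (chromosome 2, 74120093 to 74146779) and held 529, 453 and 656 normalised counts in siDHX9 against 46.0, 49.0 and 41.9 in scrambled libraries, an increase of 11.6-fold (log2 fold change 3.54, SE 0.19, adjusted p = 6.20e-05). DMSO was lower still, at 15.4 ± 8.14. TMEM145, a membrane protein, held 190.4, 189 and 184 in siDHX9 against 18.9, 20.3 and 18.9 in scrambled libraries (log2 fold change 3.21, SE 0.21, adjusted p = 9.86e-05). GNG4, a G-protein gamma subunit, OLFML3, a secreted olfactomedin-like protein, and BEX1, a brain-expressed X-linked gene, were 3.58-fold, 3.40-fold and 3.32-fold higher (adjusted p = 0.00042, 9.86e-05 and 0.000131), and all kept the call in each fit with 1 library left out. BEX2, its paralogue, was 2.11-fold higher (adjusted p = 0.00499). The adhesion proteins SLITRK1 and SLITRK3, which organise synapses, were 4.06-fold and 2.75-fold higher (adjusted p = 0.00491 and 0.00194). CKMT1A and CKMT1B, near-identical copies of the mitochondrial creatine kinase gene, both had fold changes of 3.16, and how reads were shared between them is uncertain. Genes of other settings were higher as well: KRT17, a keratin of epithelia, averaged 636 ± 105 in siDHX9 and 191 ± 30.7 in scrambled libraries (± SD, each of n = 3). For KRT17 the scrambled libraries were the low group, since DMSO averaged 573 ± 61.2. LGALS1, the lectin galectin-1, averaged 16085 ± 1286 in siDHX9, 8398 ± 554 in scrambled and 6685 ± 219 in DMSO libraries. ANXA2, a calcium-dependent membrane-binding annexin, held 24664, 25940.5 and 29007 in siDHX9 against 14467, 15187 and 15418 in scrambled libraries (log2 fold change 0.82, SE 0.10, adjusted p = 0.00324).

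Among 630 tested antisense, LINC and other long noncoding RNAs, 21 were called higher and 2 lower, which is 3.33% and 0.317% of the list against 2.1% and 1.45% of all genes tested; the median log2 fold change was 0.03. MIR9-3HG, the host transcript of the neural microRNA miR-9 at the third of its loci (chromosome 15, 89904810 to 89941718, hg19), held 4055, 4108 and 4220.4 normalised counts in siDHX9 against 1224, 1373 and 1401 in scrambled libraries (log2 fold change 1.63, SE 0.11, adjusted p = 9.86e-05). The groups were far apart relative to their spread, and DMSO, at 1619 ± 66.9, lay close to the scrambled libraries. The 2 mature products of this locus, from RefSeq on GRCh38.p14, are printed with the seed, bases 2 to 8, in capitals; they were not measured here.
hsa-miR-9-5p, chr15:89368032-89368054: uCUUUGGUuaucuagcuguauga
hsa-miR-9-3p, chr15:89368071-89368092: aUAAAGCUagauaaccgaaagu
TPT1-AS1, antisense to the translationally controlled tumour protein gene, held 525, 573 and 533 in siDHX9 against 217, 207 and 204 in scrambled libraries (log2 fold change 1.37, SE 0.13, adjusted p = 0.00106), with a DMSO mean of 208 ± 21.6 beside a scrambled mean of 209 ± 7.15. LINC02197 was one of the pair called lower, with 93.1, 113 and 47.5 in siDHX9 against 208, 243 and 221 in scrambled libraries (log2 fold change -1.48, SE 0.29, adjusted p = 0.0274); its call ended without siDHX9 replicate 1 and without each of the scrambled libraries (adjusted p = 0.0725 to 0.0983). The sources used here do not say whether counting used the strand, so an antisense transcript and its partner cannot be told apart. The list had 3 genes called higher without siDHX9 replicate 1, 38 without siDHX9 replicate 2, 5 without siDHX9 replicate 3, and 7, 6 and 12 without scrambled replicates 1, 2 and 3.

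Besides MAP1B, the fall with the smallest adjusted p was that of PSMD10 (chromosome X, 107327435 to 107334874), which encodes gankyrin, an assembly chaperone of the proteasome. It held 1827, 1566 and 1514 normalised counts in siDHX9 against 4112, 4096 and 4769 in scrambled libraries (log2 fold change -1.40, SE 0.12, adjusted p = 0.000495). It was the 1 proteasome gene called among 49 tested (2.04%, against 1.45% of all genes tested called lower), and the median log2 fold change of those 49 was 0.02. CFL1, cofilin-1, which severs actin filaments, held 16003, 13199.9 and 20349 in siDHX9 against 33159, 37276 and 35805 in scrambled libraries (log2 fold change -1.12, SE 0.15, adjusted p = 0.00491). The DMSO means of PSMD10 and CFL1, 4700.4 ± 113 and 34418 ± 2176, were close to the scrambled levels. RAP1A, a small GTPase of the RAS family, held 1928, 1859.7 and 1559.6 in siDHX9 against 3543, 3319.8 and 4246 in scrambled libraries (log2 fold change -1.05, SE 0.13, adjusted p = 0.00466). Its lowest library was siDHX9 replicate 3, and no siDHX9 library reached the lowest scrambled one.

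CPSF3, the endonuclease that cuts pre-mRNA at the poly(A) site, held 3816, 4117 and 3910.2 normalised counts in siDHX9 against 7728, 8052 and 8139 in scrambled libraries (log2 fold change -1.01, SE 0.09, adjusted p = 0.000784). YWHAH, the eta isoform of the 14-3-3 adaptors, held 6332, 6046 and 5794 in siDHX9 against 11594, 11957 and 12869.6 in scrambled libraries, and the mean decreased by 50.1% (adjusted p = 0.00093). POLR2D, a subunit of RNA polymerase II, held 3466, 3368 and 3811 in siDHX9 against 6306, 6776 and 6859 in scrambled libraries (log2 fold change -0.91, SE 0.10, adjusted p = 0.00215). These genes had tight groups that did not approach each other, and the DMSO means of CPSF3 and YWHAH, 7495 ± 222 and 11614 ± 227, lay near the scrambled means. H2AFZ, the histone variant H2A.Z, held 40254, 40075 and 42271 in siDHX9 against 67449, 62441 and 75100.1 in scrambled libraries (log2 fold change -0.74, SE 0.10, adjusted p = 0.00499). PEG10, a retrotransposon-derived imprinted gene, and HMGB1, a chromatin architectural protein, were 1.54-fold and 1.36-fold lower (adjusted p = 0.00888 and 0.0384). PEG10 lost the call without siDHX9 replicate 1 or scrambled replicate 1 (adjusted p = 0.0623 and 0.0583), and HMGB1 lost it without any single library other than siDHX9 replicate 2 (0.0751 to 0.140). Several genes named here overlap another named gene in the table (CFL1 with SNX32, CPSF3 with ITGB1BP1, ZNF22 with C10orf25, PRPH with RHEBL1, REST with NOA1), so reads shared by such a pair would make their values uncertain.

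Of 22 tested ATF4 regulators and targets 2 were called in siDHX9, both lower (9.09%, against 1.45% of all genes tested). For 7 of the 22 every siDHX9 library lay below every scrambled library, against 14.5% of all genes tested, and 21 had a negative log2 fold change (median -0.43; 50.5% of all genes tested were negative). INHBE, the inhibin beta E chain and a marker of this response, held 0, 1.83 and 0 normalised counts in siDHX9 against 238, 107 and 14.0 in scrambled libraries. That is 2 reads over the siDHX9 libraries and 394 over the scrambled libraries, a ratio of normalised sums of 0.00543 (95% exact interval 0.000655 to 0.0197, counting error only; adjusted p = 0.0126), with 7 reads over DMSO. STC2, stanniocalcin 2, held 262, 218 and 266 in siDHX9 against 1224, 849 and 372 in scrambled libraries (log2 fold change -1.55, SE 0.35, adjusted p = 0.043). Scrambled replicate 3 was the lowest scrambled library for both genes, and the siDHX9 levels of STC2 were close to DMSO at 204 ± 20.7. CHAC1, a glutathione-degrading enzyme, held 566, 158 and 552 in siDHX9 against 5052, 8311 and 720.2 in scrambled libraries and did not pass (log2 fold change -3.08, SE 0.79, adjusted p = 0.0622). DDIT3, the transcription factor CHOP, held 133, 143 and 129 in siDHX9 against 379, 319 and 129 in scrambled libraries, where scrambled replicate 3 fell within the siDHX9 range (adjusted p = 0.154). ATF4 mRNA held 53159.9, 49043 and 60244 in siDHX9 against 69022, 77236 and 57171 in scrambled libraries (log2 fold change -0.32, SE 0.13, adjusted p = 0.165).

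Of 20 tested amino acid transporters 3 were called, all lower (15%, against 1.45% of all genes tested), and 6 had a positive log2 fold change. SLC7A1, the cationic amino acid transporter CAT-1 whose promoter stretch is shown above, held 309, 356 and 332 normalised counts in siDHX9 against 699, 982 and 471 in scrambled libraries (log2 fold change -1.05, SE 0.23, adjusted p = 0.0418). SLC7A5, the LAT1 carrier of large neutral amino acids, held 1090.4, 918 and 1096 in siDHX9 against 2439.9, 2015 and 1531 in scrambled libraries (log2 fold change -0.93, SE 0.17, adjusted p = 0.0207), and SLC38A1, a glutamine transporter, was 1.66-fold lower (adjusted p = 0.0494). For all 3 the siDHX9 mean was near the DMSO mean, which was 346 ± 29.6 for SLC7A1, 954 ± 92.1 for SLC7A5 and 395 ± 55.4 for SLC38A1. Of 23 enzymes of serine, asparagine, proline and one-carbon metabolism 2 were called, both lower (8.7%, against 1.45% of all genes tested). They were the transaminases GPT2 (1.68-fold, adjusted p = 0.0449) and GOT1 (1.49-fold, adjusted p = 0.0295). Of 21 cytosolic tRNA synthetases NARS alone was called, 1.34-fold lower (adjusted p = 0.0442). That is 4.76% of the list, against 1.45% of all genes tested.

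Set against the DMSO mean, the median of the ATF4 regulators on the log2 scale was 0.21, 0.16 and 0.33 in siDHX9 replicates 1 to 3 and 0.80, 0.72 and 0.40 in scrambled replicates 1 to 3. For amino acid transporters these medians were 0.16, 0.06 and 0.07 in siDHX9 and 0.59, 0.55 and 0.12 in scrambled libraries. Scrambled replicate 3 was thus nearer to the siDHX9 libraries than replicates 1 and 2 were. No call in these 4 groups remained without siDHX9 replicate 1, without siDHX9 replicate 3, without scrambled replicate 1 or without scrambled replicate 2 (adjusted p = 0.0557 to 0.193 for the 8 genes), and without scrambled replicate 3 the ATF4 regulators had 7 called lower, while SLC38A1 and NARS lost the call (adjusted p = 0.0554 and 0.0798). What made scrambled replicates 1 and 2 differ from replicate 3 was not tested.

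**Figure D5:**
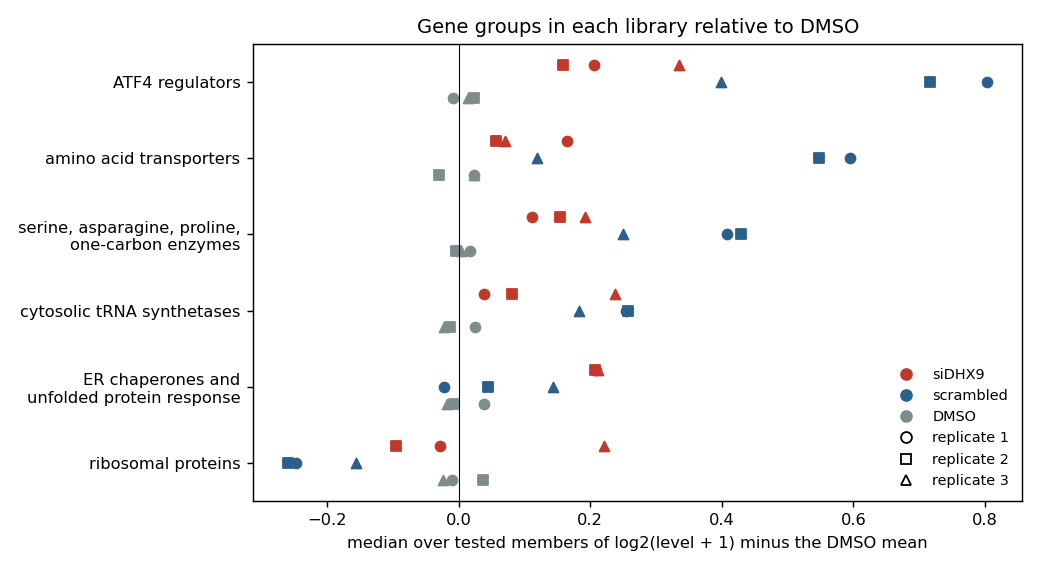
Median over the tested members of 6 gene groups of log2(normalised count + 1) minus the DMSO mean, 1 marker per library, with siDHX9 above scrambled and DMSO in each row. Scrambled replicates 1 and 2 lie to the right of the other libraries for ATF4 regulators and amino acid transporters, and the scrambled libraries lie to the left for ribosomal proteins.

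Endoplasmic reticulum chaperones were called in both directions. Of 26 tested members 2 were called higher and 1 lower (median log2 fold change 0.14). These shares were 7.69% and 3.85%, against 2.1% and 1.45% of all genes tested. CRELD2 and SDF2L1, which are induced by unfolded proteins in the endoplasmic reticulum, were 1.75-fold and 1.80-fold higher (adjusted p = 0.0109 and 0.0292). PDIA6, a protein disulfide isomerase, held 13916, 14768 and 15192 normalised counts in siDHX9 against 22811, 24045 and 23641 in scrambled libraries (log2 fold change -0.68, SE 0.09, adjusted p = 0.00493). All these calls ended without siDHX9 replicate 1 (adjusted p = 0.0524 to 0.133), those of CRELD2 and SDF2L1 also ended without scrambled replicate 1 (0.0709 and 0.124), and SDF2L1 lost its call without siDHX9 replicate 3 or scrambled replicate 2 as well (0.107 and 0.0887). Of 34 genes of cholesterol synthesis and uptake 2 were called lower and 2 higher (median -0.16). Each share was 5.88%, against 1.45% lower and 2.1% higher over all genes tested. HMGCS1, the cytosolic HMG-CoA synthase, held 5925, 7377 and 5232 in siDHX9 against 10151, 12477 and 8667 in scrambled libraries (log2 fold change -0.75, SE 0.16, adjusted p = 0.0352), and EBP, a sterol isomerase, was 1.39-fold lower, while PMVK, phosphomevalonate kinase, and NPC2, a lysosomal cholesterol carrier, were 1.49-fold and 1.41-fold higher. ACACA, acetyl-CoA carboxylase, was the 1 gene called of 17 in fatty acid synthesis (5.88%, against 1.45% of all genes tested). It held 358, 468 and 351 in siDHX9 against 719, 785 and 575 in scrambled libraries (log2 fold change -0.82, SE 0.17, adjusted p = 0.0327). The calls of these 5 lipid genes ended without siDHX9 replicate 1, siDHX9 replicate 3, scrambled replicate 1 or scrambled replicate 2 (adjusted p = 0.0556 to 0.177), and those of EBP, PMVK and NPC2 also without scrambled replicate 3 (0.0714 to 0.0849).

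All 82 tested ribosomal protein genes had a positive log2 fold change (49.5% of all genes tested did), with a median of 0.28. Only 2 were called, RPL10 and RPS27, both higher (2.44%, against 2.1% of all genes tested). After quantile normalisation 71 of 82 were positive and the median was 0.09. For 57 of the 82 every siDHX9 library lay above every scrambled library, against 14.9% of all genes tested. RPL10 held 80588, 67707 and 92832 normalised counts in siDHX9 against 56135, 48765 and 58582 in scrambled libraries (log2 fold change 0.55, SE 0.13, adjusted p = 0.0451), with 76726 ± 2968 in DMSO. RPS27, which overlaps SLC39A1, held 87239, 90465 and 110389 in siDHX9 against 68872, 64434 and 73659 in scrambled libraries (log2 fold change 0.47, SE 0.11, adjusted p = 0.0496). Set against DMSO, the median of the family was -0.03, -0.10 and 0.22 in siDHX9 replicates 1 to 3 and -0.25, -0.26 and -0.16 in scrambled replicates 1 to 3, so that the scrambled libraries were the ones away from DMSO, together with siDHX9 replicate 3 on the other side. No ribosomal protein was called without siDHX9 replicate 1, siDHX9 replicate 3 or any 1 of the scrambled libraries, and 29 were called without siDHX9 replicate 2. Of 29 host genes of small nucleolar RNAs 2 were called, both higher (6.9%, against 2.1% of all genes tested). They were SNHG15 at 1.56-fold and the entry SNHG25 // SNORD104 at 1.78-fold (adjusted p = 0.0442 and 0.0274). Their DMSO means, 1959.5 ± 59.7 and 892 ± 37.9, lay nearer to the siDHX9 than to the scrambled means. Neither was called without siDHX9 replicate 1, siDHX9 replicate 3, scrambled replicate 1 or scrambled replicate 2 (adjusted p = 0.0807 to 0.159).

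Exonic length moved with the fold change, and ribosomal protein genes are short. Over 13090 genes with a length in GENCODE v29, split in 4 classes from shortest to longest, the median log2 fold change was 0.14, 0.03, -0.06 and -0.15. Genes called higher numbered 101, 68, 58 and 50 in these classes, and genes called lower numbered 19, 52, 38 and 86. In the shortest class the median against DMSO was 0.05, -0.07 and 0.20 in siDHX9 replicates 1 to 3 and -0.09, -0.09 and -0.02 in scrambled replicates 1 to 3. The libraries of 1 group thus differed among themselves by as much as the groups did. The part of transcript length in the small shifts of short and long genes was not tested.

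Targets of EWS-FLI1, for which DHX9 is a known partner, were called in both directions. Of 47 genes activated by the fusion 4 were called higher (8.51%, against 2.1% of all genes tested) and 1 lower (2.13%, against 1.45%), with a median log2 fold change of 0.06. Of 32 genes it represses 1 was called higher and 1 lower (3.12% each; median 0.16). The activated genes called higher were BCL11B, a zinc finger transcription factor, with 5247, 4677 and 4977 normalised counts in siDHX9 against 3099, 2534 and 3001 in scrambled libraries (log2 fold change 0.79, SE 0.11, adjusted p = 0.0075), PPP1R1A (1.68-fold), KCNAB3 (1.81-fold) and CCK (2.21-fold); the 1 called lower was SKP2, a ubiquitin ligase subunit (1.41-fold). Of the repressed genes ANXA2 rose, as given above, and FN1, fibronectin, held 1427, 1365 and 1539 in siDHX9 against 2136, 2244 and 1910.3 in scrambled libraries (log2 fold change -0.54, SE 0.12, adjusted p = 0.0368). NR0B1, a direct target of the fusion, held 8259, 8085 and 8764 in siDHX9 against 7226, 6730.3 and 6452 in scrambled libraries and did not pass (log2 fold change 0.30, adjusted p = 0.106). EWSR1 and FLI1, the genes that make up the fusion, had log2 fold changes of -0.01 (SE 0.11) and -0.04 (SE 0.26), with overlapping groups. Without siDHX9 replicate 1 the calls of all these genes other than ANXA2 ended (adjusted p = 0.0657 to 0.163), and without scrambled replicate 1 those other than ANXA2 and BCL11B did (0.0679 to 0.173); KCNAB3, CCK, SKP2 and FN1 were also lost without siDHX9 replicate 3 (0.0717 to 0.110), CCK, SKP2 and FN1 without scrambled replicate 2 (0.0840 to 0.114), and KCNAB3, CCK and SKP2 without scrambled replicate 3 (0.0724 to 0.0773).

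Some mitotic genes were lower. Of 41 tested G2/M genes 4 were called, all lower (9.76%, against 1.45% of all genes tested), and the median log2 fold change was -0.26. TPX2, a spindle assembly factor, held 16665, 16524 and 17629.6 normalised counts in siDHX9 against 23808, 25332 and 21984 in scrambled libraries (log2 fold change -0.48, SE 0.09, adjusted p = 0.0274). CDC25C, the phosphatase that activates CDK1, KIF2C, a microtubule-depolymerising kinesin, and CCNB2, cyclin B2, were 1.57-fold, 1.42-fold and 1.37-fold lower (adjusted p = 0.032, 0.0317 and 0.032). Of 48 genes of G1/S and replication PCNA, the replication clamp, was the 1 called, lower (2.08%, against 1.45% of all genes tested). It held 11272, 11903 and 12869.9 in siDHX9 against 15489, 16112 and 19076 in scrambled libraries (log2 fold change -0.49, SE 0.11, adjusted p = 0.0435). Without siDHX9 replicate 1, scrambled replicate 1 or scrambled replicate 2 all 5 calls ended (adjusted p = 0.0958 to 0.186), those other than TPX2 also ended without siDHX9 replicate 3 (0.0674 to 0.0857), and those of PCNA and CCNB2 without scrambled replicate 3 (0.0905 and 0.0539). Without siDHX9 replicate 2 the G2/M list had 18 called lower.

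Of 32 tested immediate early genes, a list that includes feedback inhibitors of growth factor signalling, 1 was called higher and 3 lower. These shares were 3.1% and 9.4%, against 2.1% and 1.45% of all genes tested, and the median log2 fold change was 0.04. EGR1, a zinc finger factor whose promoter element is shown above, held 85.9, 64.0 and 82.1 normalised counts in siDHX9 against 338, 263 and 127 in scrambled libraries (log2 fold change -1.53, SE 0.33, adjusted p = 0.035). SPRY2 and DUSP6, feedback inhibitors of the RAS-ERK pathway, were 1.83-fold and 1.79-fold lower (adjusted p = 0.0195 and 0.042), and BTG2, an antiproliferative p53 target, was 2.14-fold higher (adjusted p = 0.0225). MYC held 31618, 26421 and 33738 in siDHX9 against 22481, 21835 and 23173 in scrambled libraries and did not pass (log2 fold change 0.44, SE 0.11, adjusted p = 0.0574). ISG15, a ubiquitin-like protein induced by interferon, was the 1 gene called of 38 in the interferon and double-stranded RNA response. This share of 2.63% was near the 2.1% of all genes tested. ISG15 held 3379.9, 2764 and 4247 in siDHX9 against 1939, 1714 and 1929 in scrambled libraries (log2 fold change 0.88, SE 0.15, adjusted p = 0.0179). Of these, EGR1, SPRY2, DUSP6, BTG2 and ISG15 lost the call without siDHX9 replicate 1 or scrambled replicate 1 (adjusted p = 0.0746 to 0.161). The call of EGR1, SPRY2, DUSP6 and BTG2 also ended without siDHX9 replicate 3 (0.0771 to 0.133), that of EGR1 and ISG15 without scrambled replicate 2 (0.105 and 0.0599), and that of SPRY2 and DUSP6 without scrambled replicate 3 (0.0573 and 0.0849).

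Among relatives and partners of DHX9 the share called was near or below the 3.55% of all genes tested. Of 59 tested RNA helicases of the DDX and DHX families the joint entry of DHX9 and NPL was the 1 called, and the median log2 fold change was -0.08. Of 27 tested binding partners of DHX9 limma and edgeR called none, DESeq2 called 1, lower, and 1 was higher and 3 lower at an unadjusted p under 0.05. ADAR, the adenosine deaminase of double-stranded RNA, held 529, 764 and 441 in siDHX9 against 725, 1699 and 574 in scrambled libraries, where scrambled replicate 2 alone was high and the groups overlapped (adjusted p = 0.279). Of 51 SRSF and HNRNP splicing factors limma and edgeR called none and DESeq2 called 2, both lower, with 4 higher and 7 lower at an unadjusted p under 0.05. Of 32 heat shock and cytosolic chaperone genes limma, edgeR and DESeq2 called none, with 4 higher and 2 lower at an unadjusted p under 0.05. Of 62 nuclear-encoded subunits of oxidative phosphorylation NDUFS1, the largest subunit of complex I, was the 1 called, lower (1.61%, against 1.45% of all genes tested). It held 4998, 5446 and 5313 in siDHX9 against 8397, 8969 and 8708 in scrambled libraries (log2 fold change -0.73, SE 0.09, adjusted p = 0.00491, and 0.0524 without siDHX9 replicate 1), while the median of the list was 0.15. Of 35 collagens and laminins 3 were called, all higher (8.57%, against 2.1% of all genes tested): COL6A3 (2.53-fold), LAMA4 and COL5A3 (1.63-fold). Each was lost without siDHX9 replicate 1, siDHX9 replicate 3, scrambled replicate 1 or scrambled replicate 3 (adjusted p = 0.0657 to 0.167), and COL5A3 and LAMA4 also without scrambled replicate 2.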

How the data were processed

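RNA sequencing values of 6 TC-71 libraries were compared, 3 siDHX9 and 3 scrambled, grouped by their titles; 3 DMSO libraries are shown without a test and the 3 YK-4-279 libraries enter only the fit over all 12. Per the file headers, the deposited signal values are read counts per gene divided by DESeq size factors, on FASTDB gene annotation. The submitters' processing notes name STAR 2.4.0 and hg19; no source used here gives the strand setting. Recovered reads, each value over its column's step and rounded, were used for depth, edgeR and DESeq2. They were whole within 0.1 for 100% of the smaller nonzero values, and larger values were not checked. Intervals cover counting error only.

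Of 78885 entries 25787 have a symbol, and 14158 of those averaged 10 or more in these 6 libraries (592 name several genes). Log2(value + 1) was modelled per group in limma 3.58.1 under R 4.3.3 with a trend of variance on mean (4 residual degrees of freedom). Moderation across genes raised the degrees of freedom to a median of 9.975. Tests are two-sided with Benjamini-Hochberg adjustment over the 14158 genes, called at 0.05. They were tried on simulated counts that varied independently between libraries. That trial did not cover differences of whole libraries within a group. A positive log2 fold change is higher in siDHX9. Unnamed entries (3.91 to 4.90% of reads) were left out.

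The genes, the 45 lists and the tests were chosen with earlier results of these data known. Genes were named by rule: DHX9, the 15 largest changes each way among called genes that averaged 100 or more in their higher group, the 8 called each way with the highest mean, and up to 6 called and 2 other members per list. Names outside it were chosen after their values were seen. Lists are described by counts and medians without a set test. Alternatives covered the added value, the minimum, TMM, quantile normalisation, all 12 libraries, the moderation, DESeq2 1.42.0, edgeR 4.0.16, a block for the replicate number, entries, thresholds and libraries left out.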

Additional observations from a re-analysis of the deposited data

How the results depend on the processing

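No direction of the 150 called genes named, the entry with DHX9 among them, reversed under an alternative. Named genes that were not called were not followed in this way. Genes higher outnumbered genes lower with all 6 libraries, while genes lower were the more numerous with DESeq2 and with the replicate block. Against 298 genes higher and 205 lower, the counts were 1247 and 1136 with all 12 libraries in the fit, 689 and 754 with DESeq2, and 68 and 33 at an adjusted p under 0.01. Requiring a log2 fold change of at least 1 left 155 and 41, and without scrambled replicates 1 and 2 there were 10 and 0; that fit assumes the lone scrambled library to vary like the others. Without a mean-variance trend 91 genes were lower. Leaving out 1 library gave 50 to 1308 genes higher and 21 to 1054 lower, the highest without siDHX9 replicate 2 and the lowest without siDHX9 replicate 1. Other added values, minimums, scalings, edgeR and entries gave counts within 1.5 times.

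The log2 change of the joint entry of DHX9 and NPL ran from -0.72 to -0.62 with 1 library left out. Past the threshold it did not stay at -0.62 without siDHX9 replicate 1 or at -0.74 without scrambled replicates 1 and 2. Of 150 called genes named, 10 lost the call with TMM, 24 with no minimum, 58 without the trend, 2 with edgeR and none with DESeq2 or all 12 libraries.

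With the replicate number as a block, 335 genes were higher and 366 lower, and 7 of the 150 named genes lost the call. Deviations from the group means correlated at 0.056, 0.057 and 0.069 for equal numbers, so the numbers were not taken to pair the samples, although each library correlated best with its own number. The cause of these differences was not tested. Depth of 46.9 to 51.0 (in 1e6 reads) limits genes such as INHBE and CHGA, with few reads in 1 group.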
